A study of Mus musculus with 9 samples.

Results

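The collagen genes were taken as every array spot, other than control spots, whose deposited gene name is Col, a type number, a and a chain number. This gave 40 genes of 27597 on the array, read by 81 probes in 99 spots. They were sorted into 11 fibrillar, 9 fibril-associated, 9 basement membrane, 7 network and 4 transmembrane genes. The study asked how iPax3 and iPax7 cells, injected into muscle and recovered from it, compare with adult satellite cells, the stem cells that repair skeletal muscle. iPax3 and iPax7 are lines named after the transcription factors Pax3 and Pax7, which direct cells to the muscle lineage. Each group had 3 arrays. The re-isolated groups were labelled as mononucleated cells from NSG/NSGmdx4cv mice, a strain name that joins the immune-deficient NSG background with a dystrophin-mutant allele. The third group was labelled as satellite cells from Pax7-ZsGreen mice, which carry a fluorescent reporter of Pax7. All groups came from the tibialis anterior, a shin muscle, at an age of 3 months. According to the labels 1500 cells were sorted, each line was taken from 3 mice, and 3 independent experiments were done. They name neither the markers of the sort nor the number of clones behind a line, and not which of the mice went into which array.

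Collagens are trimers of chains that wind into a triple helix, in which glycine recurs at a fixed step along each chain. Fibrillar types I, II, III, V, XI, XXIV and XXVII form the cable-like fibrils of connective tissue, and fibril-associated types bind to the surface of such fibrils. Type IV forms the sheet of the basement membrane around each muscle fibre, beside which satellite cells lie. Types XV and XVIII are found in or next to that sheet. Type VI forms beaded filaments just outside it, and transmembrane types stay anchored in the plasma membrane. In muscle, fibroblasts and fibro-adipogenic progenitors are known as the main makers of fibrillar collagen.

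A level below is the log2 signal of a probe after the 75th percentile of that array is subtracted, so that 0 is the signal at that percentile. Levels of different probes are not comparable, only the levels of 1 probe across arrays. A difference is in log2 units with its standard error (±), and 1 unit is a doubling. A gene was called when its limma adjusted p was under 0.05. The share of spots well above background ran from 57.2% (iPax7 replicate 1) to 79.9% (satellite replicate 1), no spot was saturated, and the number of arrays limits the precision. All 40 genes had a probe that passed the filter on dim signals, 33 of them well above background on all 9 arrays. Of 40 genes, 36 to 40 were well above background on each re-isolated array and 35 to 38 on each satellite array. The iPax3 arrays and iPax7 replicate 1 shared a slide, iPax7 replicates 2 and 3 shared another, and each satellite array had a slide of its own. Satellite arrays shared neither slide nor scan day with re-isolated ones, so that strain, slide and scan day cannot be told apart from group in the comparisons with satellite cells. What the p-values reflect is array-to-array spread, which may be technical.

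The probes are 60 bases long, and a run of the triple helix can be read off some of them. In 3 of the 81 probes, codons that start with GG, the codons for glycine, follow each other in steps of 9 bases at least 5 times in a row. They are shown because this repeat is the defining feature of the family. The glycine codons are in capitals:
Col5a1: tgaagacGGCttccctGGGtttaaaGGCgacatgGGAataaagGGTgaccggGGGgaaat
Col5a3: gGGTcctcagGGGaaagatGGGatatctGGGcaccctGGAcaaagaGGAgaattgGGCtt
Col11a2: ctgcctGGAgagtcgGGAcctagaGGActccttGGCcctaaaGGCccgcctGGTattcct
Each of these stretches spans more than its own length on the mm8 genome build that the array design cites (11 of the 81 probes do in all), so that its bases do not lie in 1 unbroken run of that genome. In re-isolated against satellite cells the 3 probes differed by 1.67 (Col5a1), 1.92 (Col5a3) and −1.78 (Col11a2).

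A pair of Col2a1 probes is shown because their readings parted although their sequences overlap. Both lie on the minus strand of chromosome 15 in mm8, at chr15:97804088-97804147 and chr15:97804108-97804167. They share 40 bases, in lower case, and each has 20 bases of its own, in capitals:
Col2a1 downstream probe: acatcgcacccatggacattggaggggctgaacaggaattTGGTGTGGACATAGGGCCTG
Col2a1 upstream probe: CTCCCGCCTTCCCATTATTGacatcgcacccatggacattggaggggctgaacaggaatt
The downstream probe had the highest mean of the Col2a1 probes and stands for the gene in the counts below.

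Of the 40 collagen genes, 9 were called higher and 0 lower in the mean of both re-isolated groups against satellite cells (22.5%), where 0.802% of all 22705 genes tested were called higher and 0.238% lower. They are Col1a1, Col1a2, Col3a1 and Col2a1 among the fibrillar genes, the fibril-associated Col14a1, Col6a2, Col6a3 and Col8a1 of the network class and the basement membrane gene Col15a1. In iPax3 cells alone 5 were called higher and 0 lower (12.5%, against 0.361% of all genes higher and 0.0705% lower), namely Col1a1, Col1a2, Col14a1, Col15a1 and Col8a1. In iPax7 cells alone 4 were called higher and 0 lower (10%, against 0.436% of all genes higher and 0.0969% lower), namely Col1a1, Col1a2, Col14a1 and Col2a1. Both comparisons use the same satellite arrays. With 1 array left out the counts ran from 3 to 10 in both groups, 1 to 10 in iPax3 and 1 to 8 in iPax7, lowest without satellite replicate 2 or 3 for both groups and highest without satellite replicate 1 for each. With the array number as a block they were 5, 2 and 3. The counts of these other fits stand without the share of all genes called in them.

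The median difference over the 40 genes was 0.71 in iPax3, 0.47 in iPax7 and 0.51 in both together, beside medians over all genes of −0.19, −0.15 and −0.16. Collagen genes thus lay on both sides of 0, with 24 higher and 16 lower in re-isolated cells. Groups without overlap, every re-isolated array above every satellite array, were seen for 13 genes, and the reverse for 2, where 4.14% and 4.36% of all genes had them. For iPax3 arrays alone the counts were 15 higher and 4 lower (8.60% and 10.4% of all genes), and for iPax7 arrays alone 13 and 4 (7.64% and 8.88%). Col4a5 is in each of these higher counts, and Col28a1 in that of iPax3. Both are among the 24 higher, were well above background on no satellite array and passed the filter only through re-isolated arrays. They support nothing in these counts. Col14a1 and Col6a1 were well above background on 2 of 3 satellite arrays and Col12a1 on 1. These genes are also among the 24 higher and passed the filter with the help of re-isolated arrays. Their part in the counts is to be read with that limit. By class the median difference of re-isolated cells was 1.56 for fibrillar, −0.11 for fibril-associated, 3.76 for network, −0.10 for basement membrane and −0.03 for transmembrane genes. The network median is the value of Col28a1 itself.

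**Figure D1:**
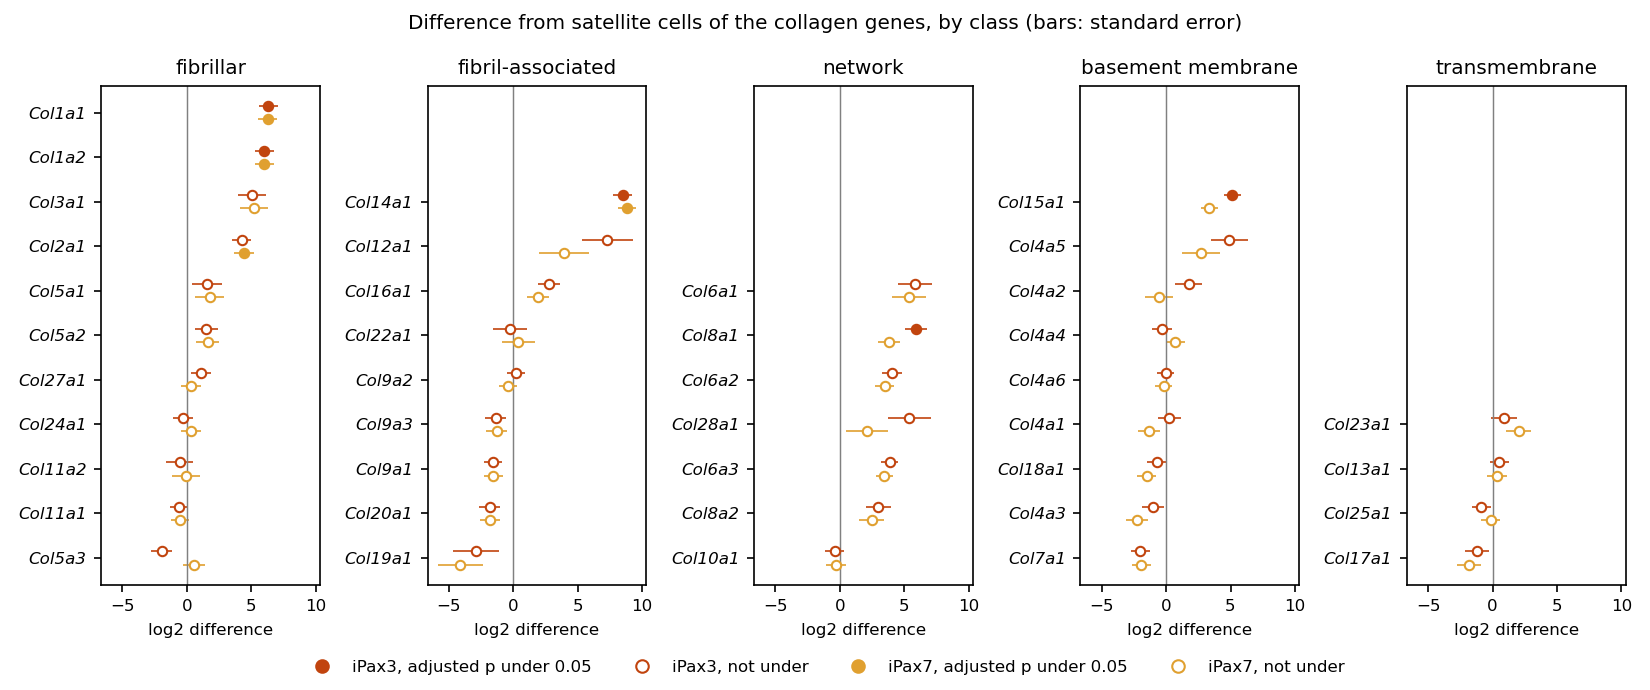
Difference of each collagen gene from satellite cells in log2 units (horizontal axis) in iPax3 and iPax7 cells, by class, with standard errors as bars and filled points for an adjusted p under 0.05. Filled points lie only on the higher side, and the 4 transmembrane genes have none.

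Among the fibrillar genes, the chains of types I and III and the Col2a1 probe were far higher in re-isolated cells, while types V, XI, XXIV and XXVII were not called. Of the 11 genes, 8 were higher, 4 of them called, and 3 were lower. Col1a1 and Col1a2 encode the chains of type I collagen, the main fibril protein of connective tissue. Col1a1 read 6.93, 6.63 and 7.34 in iPax3 replicates 1 to 3, 7.43, 6.56 and 6.74 in iPax7 replicates 1 to 3, and 1.86, 0.30 and −0.23 in satellite replicates 1 to 3. The 6 re-isolated arrays lay close together, and the nearest satellite array, replicate 1, was far below them. The difference of Col1a1 was 6.33 ± 0.75 in iPax3 (adjusted p = 0.0111), 6.27 ± 0.75 in iPax7 (adjusted p = 0.00893) and 6.30 ± 0.65 in both (adjusted p = 0.00319).

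Col1a2 read 6.27, 5.74 and 6.80 on iPax3 arrays, 6.78, 6.06 and 5.92 on iPax7 arrays, and on satellite arrays −0.63, 0.11 and 1.32. Again no array of a re-isolated group came near the satellite arrays, of which replicate 3 was the highest here and replicate 1 the lowest. The difference of Col1a2 was 6.0 ± 0.74 in iPax3 (adjusted p = 0.0126), 5.99 ± 0.74 in iPax7 (adjusted p = 0.0111) and 5.99 ± 0.64 in both (adjusted p = 0.00375). For both chains of type I the call in re-isolated cells held in each of the 9 fits that left out 1 array and in each of 11 other alternatives. The call in iPax3 cells alone was lost for each chain without any of the iPax3 arrays or without satellite replicate 2, with adjusted p from 0.00492 to 0.0778 for Col1a1 and from 0.0141 to 0.0895 for Col1a2 over the 9 fits. In iPax7 cells alone it was lost for Col1a1 without iPax7 replicate 1 (0.00466 to 0.0533) and for Col1a2 without iPax7 replicate 1, iPax7 replicate 3 or satellite replicate 2 (0.0127 to 0.059). The iPax3 call was also lost with the slide as a random block, for Col1a1 (adjusted p = 0.0746) and Col1a2, and for Col1a2 with scan day or replicate block, median scaling and only the groups compared (adjusted p up to 0.0777). With only the groups compared the iPax7 call was lost for both chains, and with averaged probes for Col1a2 (up to 0.0791).

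The 3 probes of Col1a1, on chromosome 11 of mm8 between positions 94754053 and 94767910, differed by 6.30 to 8.51. The second probe of Col1a2, which the array design assigns to another transcript entry, was not well above background on any satellite array, so that its difference is not given.

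Col3a1 encodes the single chain of type III collagen, which forms fibrils together with type I. Its levels were 7.34, 6.89 and 7.53 on iPax3 arrays, 7.98, 7.05 and 7.18 on iPax7 arrays, and on satellite arrays 4.02, 3.01 and −0.39. Satellite replicate 3 stood far below the other 2, and all 3 lay below every re-isolated array. The difference was 5.11 ± 0.93 in both re-isolated groups (adjusted p = 0.0422), 5.04 ± 1.08 in iPax3 (adjusted p = 0.0986) and 5.19 ± 1.08 in iPax7 (adjusted p = 0.0928). Of the fits that left out 1 array, only the one without satellite replicate 1 kept the call of Col3a1 (adjusted p from 0.0174 to 0.11), with differences of 3.81 to 6.02. It was also lost with slide, scan day or replicate number as a block, with median scaling and with averaged probes (adjusted p up to 0.226). A second Col3a1 probe differed by 5.18, and one more, assigned to another transcript entry and well above background on 3 of the 9 arrays, by 0.69.

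The promoters of Col1a2 and Col3a1 are shown as those of fibrillar genes that rose together. Of the 40 collagen genes, 32 have an entry in the RefSeq promoter table (build GRCm38.p6), and for each the 250 bases before the annotated start were read. Col1a2, chr6:4505368-4505617, plus strand, has CCAAT and GGGCGG in capitals:
Col1a2 promoter: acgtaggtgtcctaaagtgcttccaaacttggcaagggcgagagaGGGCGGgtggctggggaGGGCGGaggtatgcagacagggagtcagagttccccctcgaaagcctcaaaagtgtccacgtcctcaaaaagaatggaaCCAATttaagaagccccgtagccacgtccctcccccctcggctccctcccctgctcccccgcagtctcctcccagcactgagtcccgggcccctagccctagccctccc
Col3a1, chr1:45311288-45311537, plus strand, has TATAAA in capitals:
Col3a1 promoter: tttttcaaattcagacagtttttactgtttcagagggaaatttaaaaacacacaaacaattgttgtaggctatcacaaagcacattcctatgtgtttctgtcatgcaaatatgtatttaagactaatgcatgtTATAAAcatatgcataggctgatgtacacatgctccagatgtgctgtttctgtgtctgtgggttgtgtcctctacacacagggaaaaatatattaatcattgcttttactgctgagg
The letters searched were CCAAT and GGGCGG on both strands, TATAAA on the strand of the gene and TGANTCA, which reads the same on both strands. Their occurrences did not overlap in these promoters. Col1a2 has 1 CCAAT and 2 GGGCGG, and Col3a1 has 1 TATAAA and none of the other 3. Of all 32851 promoters in the table, 33.8% hold CCAAT, 32.7% GGGCGG, 7.6% TATAAA and 6.7% TGANTCA. Of the 35 promoters of collagen genes, 34.3%, 54.3%, 14.3% and 2.9% do. These are matches of letters and not measured binding sites.

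Col2a1 encodes the chain of type II collagen, known as the fibril protein of cartilage. Its downstream probe read 5.69, 5.37 and 5.76 on iPax3 arrays, 6.34, 5.37 and 5.58 on iPax7 arrays, and on satellite arrays 2.55, 1.36 and 0.16. The upstream probe read 0.08, −0.67 and −0.51 on iPax3 arrays, 0.28, −1.18 and −1.13 on iPax7 arrays, and on satellite arrays −0.24, −0.48 and −0.61. Thus the downstream probe separated every re-isolated from every satellite array, and on the upstream probe the groups overlapped. The downstream probe differed by 4.25 ± 0.76 in iPax3 (adjusted p = 0.059), by 4.41 ± 0.76 in iPax7 (adjusted p = 0.0486) and by 4.33 ± 0.66 in both (adjusted p = 0.0213).

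The upstream probe differed by −0.08 between re-isolated and satellite cells and was well above background on all 9 arrays. The remaining Col2a1 probe, assigned to another transcript entry and well above background on 4 of 9 arrays, differed by −1.20. With the mean of the probes in place of the brightest, the call of Col2a1 in re-isolated cells was lost and its difference fell to 1.02. It was also lost without any one of the 3 iPax3 arrays, iPax7 replicate 2 or 3, or satellite replicate 2 or 3 (adjusted p from 0.00863 to 0.0928), and that in iPax7 cells without any array but satellite replicate 1 (0.0153 to 0.147). The call in re-isolated cells was lost as well with slide, scan day or replicate number as a block and with median scaling, and that in iPax7 cells in 8 of 12 other alternatives (adjusted p up to 0.701). The cartilage markers Sox9, its lineage transcription factor, and Acan, its main proteoglycan, differed by 0.00 ± 0.63 and −0.02 ± 0.61 in re-isolated cells. Of the same list, the osteoblast factor Sp7 differed by 2.20 ± 0.86 (adjusted p = 0.276), with every re-isolated array above every satellite array, Comp, a cartilage and tendon matrix protein, by 1.15 ± 1.16 (adjusted p = 0.667), and Bglap by 0.14. Of 5 cartilage and bone markers tested 0 were called, and the summed level of that list ran from 2.13 to 3.68 on re-isolated and from 2.17 to 2.75 on satellite arrays.

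The downstream Col2a1 probe was aligned without gaps to the 78 probes of other collagen genes, with overlaps of at least 25 bases. By percent identity the Col1a2 probe with the highest mean came first, with 21 of 30 bases the same (70%). A Col20a1 probe came next, with 22 of 37 the same (59.5%) and a longer run of shared bases, 9 against 7, and Col20a1 was lower in re-isolated cells by −1.82. The stretch with Col1a2 is shown with shared bases in capitals:
Col2a1 downstream probe, end: AaCAgGAATTtgGTGTGGAcaTaGGgCCtG
Col1a2 probe, start of the overlap: AcCAaGAATTccGTGTGGAggTtGGcCCcG
The upstream Col2a1 probe reached at most 50% with any of these probes. This comparison was chosen after the values were seen, and the part of sequence likeness in the readings was not tested.

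**Figure D2:**
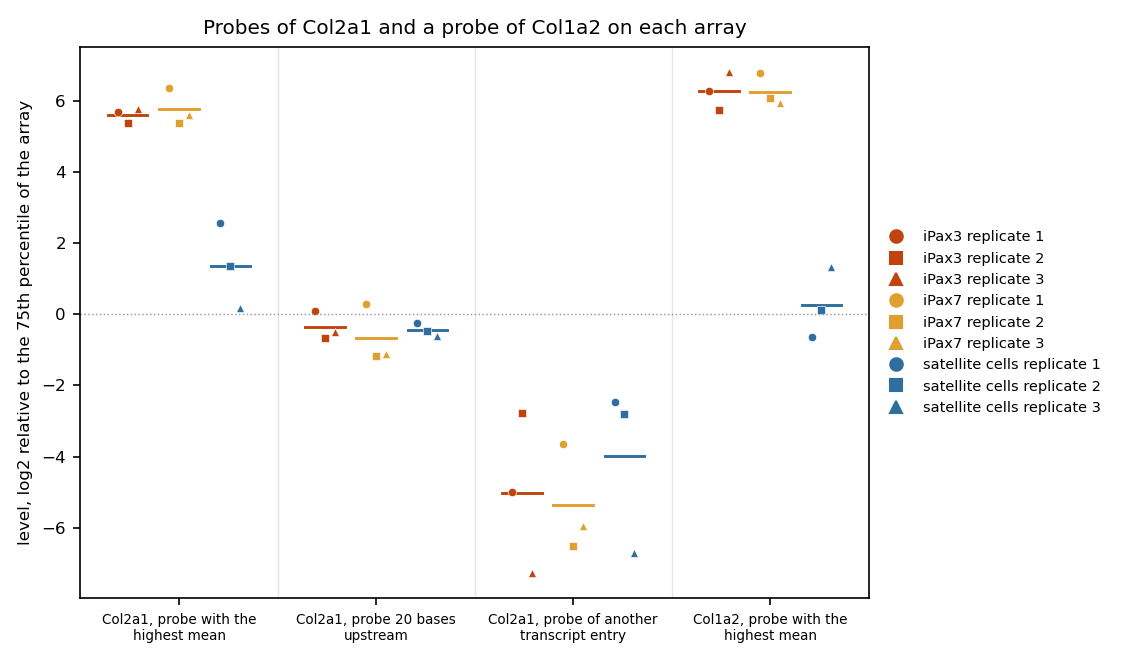
Level of the 3 Col2a1 probes and of the Col1a2 probe on each array (vertical axis, log2, array's 75th percentile set to 0), with bars at the group means. The downstream Col2a1 probe averages 5.61 (iPax3), 5.77 (iPax7) and 1.36 (satellite), and the upstream probe, which shares 40 bases with it, −0.36, −0.68 and −0.44.

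The minor fibrillar types did not pass the test. Col5a1 and Col5a2 encode chains of type V, which is built into type I fibrils and helps to set their width. Col5a2 read 4.21, 3.03 and 4.71 on iPax3 arrays, 4.70, 3.81 and 3.74 on iPax7 arrays, and on satellite arrays 1.29, 2.12 and 4.02, so that satellite replicate 3 lay among the re-isolated arrays. Its difference in re-isolated cells was 1.56 ± 0.76 (adjusted p = 0.367), and that of Col5a1 was 1.67 ± 0.98 (adjusted p = 0.444). The second Col5a1 probe, which did not enter the test, differed by 3.60, with re-isolated arrays at 3.70 or more and satellite arrays at 1.97 or less. The other 5 fibrillar genes differed by −0.71 (Col5a3) to 0.72 (Col27a1). Other probes of 3 of them read higher, at 4.51 and 2.91 for Col27a1, 2.39 for Col11a1 and 1.92 for Col5a3, while the second Col11a2 probe read −1.78.

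**Figure D3:**
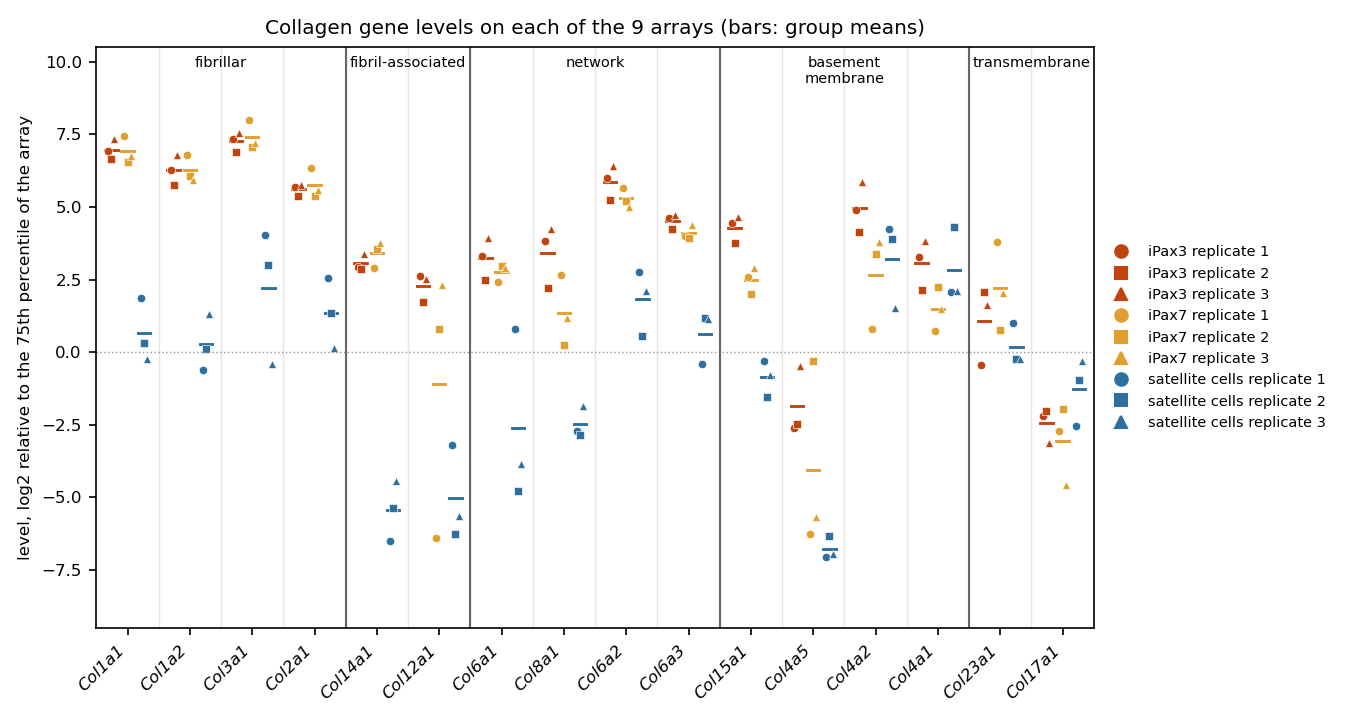
Level of 16 collagen genes on each array (vertical axis, log2, array's 75th percentile set to 0), grouped by class, with symbols for replicates and bars at group means. For Col1a1, Col1a2, Col3a1, Col14a1, Col6a1, Col6a2, Col6a3, Col8a1 and Col15a1 every re-isolated array lies above every satellite array, while Col4a1, Col4a2, Col23a1 and Col17a1 overlap.

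Of the fibril-associated genes Col14a1 was called, and the rest of the class lay on both sides of 0, with 4 of 9 higher and 5 lower in re-isolated cells. Col14a1 encodes type XIV collagen, which decorates type I fibrils. It had the largest difference of the 40 genes in each comparison with satellite cells. It read 2.93, 2.87 and 3.38 on iPax3 arrays, 2.90, 3.56 and 3.75 on iPax7 arrays, and on satellite arrays −6.48, −5.37 and −4.43. The lowest re-isolated array was iPax3 replicate 2, and the satellite probe signal was well above background on 2 of 3 arrays. Col14a1 therefore passed the filter with the help of re-isolated arrays. The difference of Col14a1 was 8.49 ± 0.73 in iPax3 (adjusted p = 0.00255), 8.83 ± 0.73 in iPax7 (adjusted p = 0.00199) and 8.66 ± 0.63 in both (adjusted p = 0.000728). The call held in all 9 fits that left out 1 array. It also held in the other alternatives that could test it, 11 for each line and 10 for both. Over all of these the difference in both lay between 5.57 and 9.16. Col14a1 could not be tested where probes had to be well above background on all 9 arrays. A second Col14a1 probe was well above background on all 6 re-isolated arrays and on no satellite array.

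Col12a1 encodes type XII collagen, a close relative of type XIV. It read 2.62, 1.71 and 2.51 on iPax3 arrays, −6.40, 0.80 and 2.32 on iPax7 arrays, and on satellite arrays −3.20, −6.26 and −5.62. iPax7 replicate 1, the array with the smallest share of spots above background, was as low as the satellite arrays. Col12a1 was well above background on 3 iPax3 arrays, 2 iPax7 arrays and 1 satellite array. The difference in re-isolated cells was 5.62 ± 1.71 (adjusted p = 0.183), with 7.31 ± 1.97 in iPax3 (adjusted p = 0.181) and 3.93 ± 1.97 in iPax7 (adjusted p = 0.461). Without iPax7 replicate 1 Col12a1 was called in iPax3 cells (adjusted p = 0.0244) and in both groups, at 6.95 (adjusted p = 0.0161). In iPax7 cells it ran from 2.23 to 6.59 with 1 array left out and was not called.

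Col16a1, a fibril-associated gene of several connective tissues, differed by 2.34 ± 0.73 (adjusted p = 0.194), and its re-isolated and satellite arrays did not overlap. The type IX chains, partners of type II in cartilage, differed by −1.57 (Col9a1), −0.11 (Col9a2) and −1.34 (Col9a3), and none was called. Col20a1 differed by −1.82 (adjusted p = 0.267) and Col22a1, a collagen of the junction between muscle and tendon, by 0.08. The second Col22a1 probe, well above background on every array, went the opposite way, at −1.28. Col19a1 was well above background on 2 iPax3 arrays, 0 iPax7 arrays and 2 satellite arrays. Its satellite levels of −2.68, 1.81 and −6.89 were spread so widely that the difference of −3.48 ± 1.54 was not called (adjusted p = 0.325).

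In the network class 6 of 7 genes were higher in re-isolated cells, 3 of them called, and only Col10a1 was lower, by −0.35. Col28a1, among the 6, passed the filter only through re-isolated arrays. Type VI collagen is built of 3 chains, forms beaded filaments and is a known part of the satellite cell's surroundings, made mainly by fibroblasts. Col6a2 read 5.98, 5.23 and 6.40 on iPax3 arrays, 5.66, 5.20 and 5.01 on iPax7 arrays, and on satellite arrays 2.77, 0.56 and 2.11. Col6a3 read 4.61, 4.24 and 4.72 on iPax3 arrays, 3.98, 3.93 and 4.38 on iPax7 arrays, and on satellite arrays −0.39, 1.18 and 1.13. In both genes all re-isolated arrays lay above all satellite arrays. The difference in both groups was 3.77 ± 0.66 for Col6a2 (adjusted p = 0.037) and 3.67 ± 0.59 for Col6a3 (adjusted p = 0.0263). Taken by line, neither gene was called, with adjusted p of 0.0684 and 0.056 in iPax3 and 0.112 and 0.0764 in iPax7.

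Col6a1 read 3.31, 2.50 and 3.94 on iPax3 arrays, 2.42, 2.96 and 2.88 on iPax7 arrays, and on satellite arrays 0.79, −4.79 and −3.85. Satellite replicate 1 was far above the other 2 but below every re-isolated array. Col6a1 was well above background on 2 of 3 satellite arrays. The difference of 5.62 ± 1.13 missed the threshold (adjusted p = 0.061), and without satellite replicate 1 it was 7.33 (adjusted p = 0.00277). With 1 array left out, the difference of Col6a2 ran from 3.14 to 4.24 and its call was kept only without satellite replicate 1 (adjusted p from 0.0192 to 0.138). That of Col6a3 was lost without any iPax3 array, iPax7 replicate 2 or 3, or satellite replicate 2 or 3 (0.0241 to 0.0794), with differences of 3.16 to 3.94. Both calls were also lost with slide, scan day or replicate number as a block and with median scaling, and that of Col6a2 with averaged probes (adjusted p up to 0.212 for Col6a2 and 0.148 for Col6a3). The other Col6a3 probes were each well above background on 1 of 3 satellite arrays, and the second Col6a2 probe, on 2 of 3, differed by 2.31. On that Col6a2 probe the groups overlapped, with satellite replicate 2 at 3.69 and the highest re-isolated array at 3.01.

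Col8a1 encodes a chain of type VIII, a short-chain collagen of vessel walls and of the eye. Its levels were 3.81, 2.22 and 4.24 on iPax3 arrays, 2.66, 0.25 and 1.16 on iPax7 arrays, and on satellite arrays −2.72, −2.85 and −1.85. Every re-isolated array was above every satellite array, and the iPax7 arrays were the more spread out. The difference of Col8a1 was 5.90 ± 0.87 in iPax3 (adjusted p = 0.0288), 3.83 ± 0.87 in iPax7 (adjusted p = 0.121) and 4.87 ± 0.75 in both (adjusted p = 0.0226). In re-isolated cells the call was lost without iPax3 replicate 1 or 3, iPax7 replicate 3 or satellite replicate 2 or 3 (0.0333 to 0.102). In iPax3 cells it was lost without any iPax3 array, iPax7 replicate 3 or satellite replicate 2 or 3 (0.0254 to 0.148). Both calls of Col8a1 were lost with slide or scan day as a random block and with median scaling (adjusted p up to 0.161 in both groups and 0.209 in iPax3), and that in iPax3 also with the replicate block and with only the groups compared. Its partner chain Col8a2 differed by 2.75 ± 0.84 (adjusted p = 0.185). Col28a1 was not well above background on any satellite array, and its iPax3 mean was at least 18.7-fold higher than the satellite floor (adjusted p = 0.243), where the floor is the lowest signal well above background on each satellite array. Its iPax3 levels of 2.28, −1.19 and −3.97 were far apart.

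Among basement membrane genes Col15a1 was called, while the main type IV chains lay within the spread of the arrays. Of the 9 genes, 4 were higher and 5 lower in re-isolated cells. Col4a5, among the 4, passed the filter only through re-isolated arrays. Col15a1 encodes type XV collagen, which links the basement membrane to the fibrils outside it. It read 4.43, 3.74 and 4.65 on iPax3 arrays, 2.57, 2.01 and 2.88 on iPax7 arrays, and on satellite arrays −0.29, −1.53 and −0.78. The groups did not overlap, with iPax3 arrays the highest and iPax7 arrays between them and the satellite arrays. The difference of Col15a1 was 5.14 ± 0.67 in iPax3 (adjusted p = 0.0167), 3.36 ± 0.67 in iPax7 (adjusted p = 0.0806) and 4.25 ± 0.58 in both (adjusted p = 0.0124). In re-isolated cells the call was lost without satellite replicate 2 or 3 (0.0105 to 0.0734), and in iPax3 cells without any iPax3 array or satellite replicate 2 or 3 (0.0125 to 0.109). Both calls of Col15a1 were lost with slide or scan day as a random block and with median scaling (adjusted p up to 0.0929 in both groups and 0.0981 in iPax3), and that in iPax3 also with the replicate block and with only the groups compared. A second Col15a1 probe, at chr4:47333501-47333560 in mm8 beside chr4:47333331-47333390 for the one used, differed by 4.59.

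Col4a1 and Col4a2, which lie next to each other in opposite directions, encode the chains of the common type IV network. Col4a1 read 3.26, 2.15 and 3.81 on iPax3 arrays, 0.72, 2.25 and 1.49 on iPax7 arrays, and on satellite arrays 2.06, 4.30 and 2.11. Col4a2 read 4.88, 4.12 and 5.85 on iPax3 arrays, 0.79, 3.39 and 3.78 on iPax7 arrays, and on satellite arrays 4.23, 3.89 and 1.51. In both genes satellite arrays lay among the re-isolated ones. The difference was −0.54 ± 0.75 for Col4a1 (adjusted p = 0.764) and 0.59 ± 0.93 for Col4a2 (adjusted p = 0.794). The second Col4a1 probe differed by 1.05 and the second Col4a2 probe by 0.56.

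Of the other type IV chains, Col4a3 differed by −1.62, Col4a4 by 0.19 and Col4a6 by −0.10, none called. The other 2 Col4a3 probes went the opposite way, at 0.38 and 0.74. The second Col4a4 probe read −4.86, against 0.19 for the probe used. Col4a5 read −2.62, −2.47 and −0.49 on iPax3 arrays, −6.25, −0.30 and −5.66 on iPax7 arrays, and on satellite arrays −7.06, −6.33 and −6.94. It was well above background on 3 iPax3 arrays, 1 iPax7 array and no satellite array, and its iPax3 mean was at least 9.99-fold above the satellite floor (adjusted p = 0.222). Its neighbour Col4a6, in head-to-head order with it, was well above background on all 9 arrays.

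Col7a1, the anchoring fibril collagen of skin and other epithelia, and Col18a1, the precursor of endostatin, were lower in re-isolated cells by −1.97 ± 0.63 (adjusted p = 0.202) and −1.13 ± 0.63 (adjusted p = 0.424). All satellite arrays of Col7a1, at 3.88, 3.89 and 5.60, were above all re-isolated arrays, which ran from 1.98 to 3.07. This and Col9a1 were the 2 genes of the 40 that were lower with no overlap.

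The transmembrane genes did not separate the groups. Of 4, 2 were higher and 2 lower, and 0 were called. Col23a1 read −0.45, 2.07 and 1.61 on iPax3 arrays, 3.80, 0.75 and 2.05 on iPax7 arrays, and on satellite arrays 1.0, −0.22 and −0.25, a difference of 1.46 ± 0.87 (adjusted p = 0.448). Col17a1, known from the junction of skin with its basement membrane, read −2.19, −2.03 and −3.14 on iPax3 arrays, −2.70, −1.95 and −4.57 on iPax7 arrays, and on satellite arrays −2.53, −0.95 and −0.31, a difference of −1.50 ± 0.79 (adjusted p = 0.404). Col13a1, a collagen of the nerve-muscle junction, differed by 0.44 ± 0.65, and Col25a1, known for its part in the innervation of muscle, by −0.50 ± 0.64. A second Col25a1 probe, well above background on every array, went the opposite way, at 0.60. All 4 genes were well above background on all 9 arrays.

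In 6 pairs of neighbouring collagen genes in the reference gene order, Col3a1 differed by 5.11 and Col5a2 by 1.56, Col6a2 by 3.77 and Col6a1 by 5.62, and Col9a1 by −1.57 and Col19a1 by −3.48. The other 3 pairs are those of type IV (Col4a1 and Col4a2, Col4a3 and Col4a4, Col4a5 and Col4a6), with no member called. No direction is drawn for these pairs, since probes of Col4a1, Col4a3 and Col4a4 differ in sign and Col4a6 (−0.10 ± 0.58) lies within its error.

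Between the re-isolated lines, 0 of 40 collagen genes and 0 of all 22705 genes were called (0%) by limma. An unadjusted p under 0.05 was seen for 3 collagen genes and 931 of all genes, where 1135 of all genes would be expected by chance. The median difference of iPax7 against iPax3 was −0.11 over the collagen genes and 0.07 over all genes, and with median scaling it was 0.06 and 0.24. The 3 genes, named after their values were seen, were Col5a3, Col15a1 and Col8a1, and each had an adjusted p of 1. Col5a3, a type V chain, read 0.07, 1.45 and 1.04 in iPax3 cells and 4.20, 2.46 and 3.43 in iPax7 cells, higher in iPax7 by 2.51 ± 0.83 (unadjusted p = 0.0143 by limma). Its second probe differed by 1.20. Col15a1 was lower in iPax7 cells by −1.78 ± 0.67 (unadjusted p = 0.0259 by limma) and Col8a1 by −2.07 ± 0.87 (unadjusted p = 0.0406 by limma).

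Among markers of other cells 0 were called between the lines. The tenocyte and endothelial markers below were not picked in advance. Of all 22705 genes, 12096 were higher and 10609 lower in iPax7 cells. Of 6 tenocyte markers 5 were lower in iPax7 cells, among them Thbs4 by −2.73 and Tnmd, which was well above background on 3 iPax3 arrays and 1 iPax7 array, by −3.68. Of 10 endothelial markers 8 were higher, among them Cldn5 by 3.54, Lyve1 by 4.95 and Tek, which was well above background on no iPax3 array and at least 140-fold above the iPax3 floor. On these 5 markers the iPax3 and iPax7 arrays did not overlap, and their part in the collagen differences was not tested. Of all genes, 4.46% were without overlap and higher in iPax7, and 4.89% without overlap and lower.

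Col5a3 was the 1 collagen gene with every iPax7 array above every iPax3 array, and Col15a1, Col4a2 and Col19a1 were the 3 with the reverse, where 4.46% and 4.89% of all genes had such a pattern. All iPax3 arrays shared their slide with iPax7 replicate 1 alone, so that on that slide the lines can be set side by side only through this array, which had the lowest share of spots above background. There it differed from the iPax3 mean by −1.70 for Col15a1, −0.77 for Col8a1, −4.16 for Col4a2 and −8.68 for Col12a1, values of 1 array with no replicate. For the type I chains the differences between the lines were −0.06 ± 0.75 (Col1a1) and −0.01 ± 0.74 (Col1a2), and for Col14a1 0.34 ± 0.73.

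The proteins that make and handle collagen were followed with a list of 56 genes, of which 54 could be tested, and 3 of them rose and 0 fell in re-isolated cells (5.56%, against 0.802% of all genes higher). They were Adamts2, which cuts the propeptide off type I to III procollagen, Itga11, the integrin chain of a receptor for type I fibrils, and Mmp14, a membrane-bound protease that can cut fibrillar collagen. Itga11 read 1.32, 0.82 and 2.79 on iPax3 arrays, 1.96, 2.21 and 1.86 on iPax7 arrays, and on satellite arrays −6.44, −6.26 and −4.65, where no array had it well above background, so that it passed the filter only through the re-isolated arrays. Mmp14 read 5.80, 5.06 and 6.07 on iPax3 arrays, 6.27, 5.20 and 5.07 on iPax7 arrays, and on satellite arrays 0.31, −4.16 and −3.28. For both the re-isolated arrays lay above all satellite arrays. Mmp14 was well above background on 2 of 3 satellite arrays. Itga11 was at least 119-fold higher than the satellite floor (adjusted p = 0.00163). Because of the way it passed the filter, the call of Itga11 supports nothing here, although the 5.56% counts it. The difference was 7.96 ± 0.97 for Mmp14 (adjusted p = 0.00817) and 5.48 ± 0.92 for Adamts2 (adjusted p = 0.0312). The median of the whole list was 0.99.

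By role, 0 of 19 genes for modification and folding were called, with a median of 0.83. The largest difference there was that of P3h1, a prolyl 3-hydroxylase, at 4.96 ± 1.37 (adjusted p = 0.152). Serpinh1, the chaperone HSP47 that is known to bind procollagen alone, differed by 1.66 ± 0.77 (adjusted p = 0.342). Of 4 export genes 0 were called, with Sec23a, a coat protein of transport vesicles, at 3.80 ± 1.42 (adjusted p = 0.26). Of 5 cross-linking enzymes 0 were called, with Lox at 5.03 ± 1.31 (adjusted p = 0.129) and Loxl1 at 4.37 ± 0.97 (adjusted p = 0.0804), while Loxl2 read 0.21 ± 0.59. The probes used for P3h1, Sec23a and Lox were each well above background on only 1 of 3 satellite arrays. The size of their differences is therefore uncertain. Of 8 propeptide genes, 10 receptors and 8 genes of degradation 1 each was called, as named above. Pcolce2, an enhancer of propeptide cleavage, was not well above background on any iPax3 or satellite array and passed the filter on dim probes only through the iPax7 arrays, so that its call supports nothing here. In iPax7 cells it read 3.30, −1.58 and 1.54 and was at least 76.9-fold higher than the satellite floor (adjusted p = 0.0498), while iPax7 against iPax3 was not called (adjusted p = 0.492).

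Among markers of other cells, only those of fibro-adipogenic progenitors and fibroblasts had members called higher in re-isolated cells. Of 15 markers of fibro-adipogenic progenitors and fibroblasts, none of them a collagen, 14 were higher in re-isolated cells and 8 called (53.3%, against 0.802% of all genes higher), with a median of 4.38. They include Pdgfra, the receptor that defines these progenitors (7.90 ± 0.69, adjusted p = 0.00145), Dcn, a fibril-binding proteoglycan (8.71 ± 0.65, adjusted p = 0.000728), and Ly6a, the surface antigen Sca-1 (4.38 ± 0.63, adjusted p = 0.0162). The others were Lum, Gsn, Serpinf1, Mfap5 and Fbn1. The log2 of the summed level of the 15 ran from 8.02 to 9.72 on re-isolated arrays and was 5.92, 6.08 and 7.44 on satellite arrays. Such sums add levels of different probes, so that the brightest weigh most. On satellite replicate 3 Dpt read 6.30 and Clec3b 6.41. Neither was called, with differences of 0.63 ± 0.72 for Dpt and −0.20 ± 0.68 for Clec3b, the member that was lower. All 15 were well above background on each re-isolated array, and 15, 13 and 14 on the satellite arrays. These lists were chosen with earlier results of these data known.

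Of 11 satellite cell markers tested, 11 were lower in re-isolated cells and 2 called, Chrdl2 (−9.12 ± 0.60, adjusted p = 0.000624) and Fgfr4 (−3.03 ± 0.57, adjusted p = 0.0469). The called share was 18.2%, against 0.238% of all genes called lower. Of all 22705 genes 12346 were lower. The summed level of the 11 markers was 7.26, 7.80 and 7.93 on satellite arrays and 4.85 to 6.15 on re-isolated arrays. The sum of tenocyte markers ran from 3.57 to 4.77 on re-isolated arrays and were 2.69, 2.74 and 4.59 on satellite arrays, with 0 of 6 called. Endothelial markers, with 0 of 10 called, ran from 2.57 to 6.02 and from 3.68 to 4.29. Of 8 pericyte and smooth muscle markers Myh11 was called lower (−2.95 ± 0.56, adjusted p = 0.0482), which is 12.5% against 0.238% of all genes. Of 8 markers of differentiating muscle, 9 of leukocytes and 4 of Schwann cells 0 were called. The part of these cell markers in the collagen differences was not tested. In such bulk samples, fewer cells of a type and less RNA per cell cannot be told apart.

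**Figure D4:**
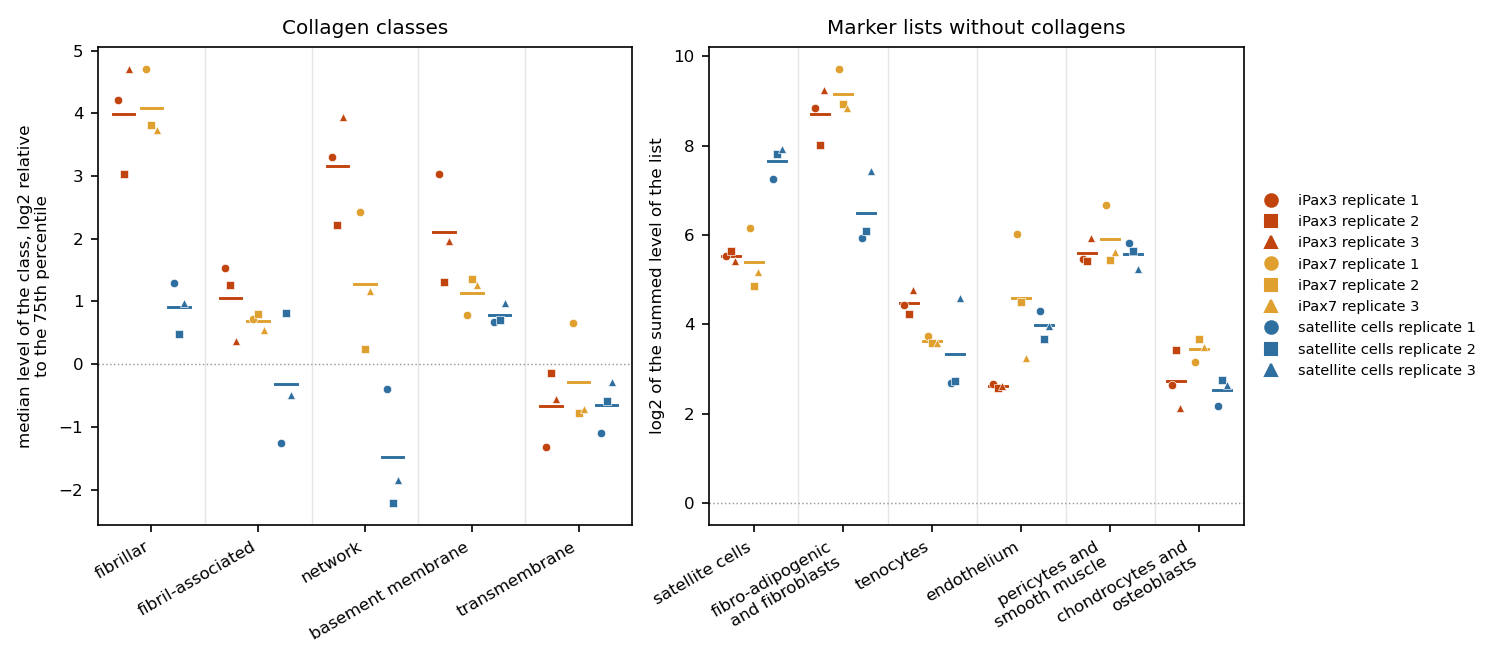
Left, median level of each collagen class on each array (log2, array's 75th percentile set to 0); right, log2 of the summed level of marker lists that hold no collagen, with bars at group means. On every re-isolated array the fibrillar and network medians and the fibroblast sum are above those of every satellite array, and the satellite cell sum is below.

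The class medians on single arrays showed the same grouping. The fibrillar median was 4.21, 3.03 and 4.71 on iPax3 arrays, 4.70, 3.81 and 3.74 on iPax7 arrays, and on satellite arrays 1.29, 0.48 and 0.98. The network median was 3.31, 2.22 and 3.94 on iPax3 arrays, 2.42, 0.25 and 1.16 on iPax7 arrays, and on satellite arrays −0.39, −2.21 and −1.85. In the other classes the satellite arrays were closer to the re-isolated arrays. The basement membrane median ran from 0.79 to 3.03 on re-isolated and from 0.67 to 0.98 on satellite arrays, and the transmembrane median from −1.32 to 0.66 and from −1.09 to −0.28.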

How the data were processed

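RNA from 1500 sorted cells per sample was amplified with the SuperAmp method, labelled with Cy3 and hybridised to single-colour Agilent arrays, per the labels' protocols. The deposited intensity values are scanner output of Agilent Feature Extraction (version 10.5.1.1 per the file headers, where the design cites genome build mm8). Its flags call a spot well above background at 13 standard deviations. The deposited value table holds log2 values of 31918 spots. The submitters' processing notes name limma, and the table's normalisation is not given in the sources used here. Set against the scanner's log2 mean signal, its columns had correlations of 0.9875 to 0.9993 with medians of 7.704, 7.709, 7.68, 7.69, 7.701, 7.669, 7.676, 7.633 and 7.656 (iPax3, iPax7 and satellite replicates 1 to 3), an uncentred log2 scale, and it served as an alternative.

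Here log2 of the processed signal minus the 75th percentile of each array was used. Between 60 and 342 outlier spots per array were left out, 1 of them a collagen spot, and spots of a probe were averaged. A probe had to be well above background on 3 or more of 9 arrays, with values on at least 7 arrays and at least 2 of each group, and the probe with the highest mean stood for its gene. The test was limma's (lmFit then eBayes; limma version 3.58.1, R version 4.3.3) over all 9 arrays without a block, with Benjamini-Hochberg adjustment over 22705 genes. The fit was tested on simulated data. Collagens kept their file names; 4 further probes, which the reference gene table names Col26a1, Col6a4 and Col6a6, lie outside the rule and were not counted.

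Genes named with full values were those called in any comparison, the 2 largest differences in each class, and the chains of types I, III, IV (a1 and a2) and VI. Of the handling list they were those called and the largest in each role, and of the markers those called. A few others are given with values as well. The members and lists were chosen with earlier results of these data known. The alternatives covered background correction, scaling, filter, probe choice, the value table, slide, scan day, replicate block, variance model and left-out arrays. The 2 fits of iPax7 against iPax3 with the slide taken into account were added after seeing the data.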

Additional observations from a re-analysis of the deposited data

How the results depend on the processing

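The called collagen genes were higher under every alternative in which they could be tested. Col14a1 dropped out where probes had to be well above background on all 9 arrays. Between iPax7 and iPax3, 0 collagen genes were called in any alternative. Where a count moved by over 1.5 times, the cause was not tested. The counts below stand without the share of all genes called in the same fit. Their changes are therefore not read as particular to collagen genes. Against 5 calls in iPax3, 4 in iPax7 and 9 in both, the counts were 9 and 7 in iPax3 and iPax7 with normexp background correction or the authors' value table, 8 and 8 with trend and robust options, and 3 and 1 with only the groups compared. Median scaling gave 2 in iPax3 and 3 in both, the slide as a random block (correlation 0.431) 1 and 3, and the scan day (0.196) 2 and 3. Leaving out 1 array gave 1 to 10 calls in iPax3, 1 to 8 in iPax7 and 3 to 10 in both. Without satellite replicate 1 there were 10, 8 and 10, without replicate 2 there were 1, 2 and 3, and without replicate 3 there were 3 in each. Without any iPax3 array there was 1 in iPax3 and 4 or 5 in both. Without iPax7 replicate 1 there was 1 in iPax7, without replicate 2 there were 5 in both, and without replicate 3 there were 2 in iPax7 and 4 in both. Without satellite replicate 1, Col6a1 was called in iPax3, iPax7 and both, Col3a1 and Col6a2 in either line, Col2a1 and Col6a3 in iPax3 and Col15a1 in iPax7.

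Same-numbered arrays deviated from their group means with correlations of −0.129 to 0.063, which gave no sign of a pairing by number. Deviations from means of 3 arrays cannot exclude one. With the replicate block, 2 genes were called in iPax3, 3 in iPax7 and 5 in both.

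The median difference in iPax3 (0.71) was 0.31 with median scaling, 0.25 with probes well above background on all 9 arrays, 1.02 in the authors' value table, 1.48 with probes averaged per gene and 0.42 with the slide as a random block. In both groups (0.51) it was 0.20, 0.19, 0.79 and 0.96 under the first 4 of these. In iPax7 (0.47) it was 0.25 with median scaling. Between the lines (−0.11) it turned to 0.06 with median scaling and was −0.50 with averaged probes, −0.24 with quantile normalisation, −0.23 in the value table, −0.04 with normexp and −0.01 with probes well above background on all 9 arrays, so no direction is given for it. With 1 array left out it ran from 0.56 to 1.05 in iPax3, 0.11 to 0.97 in iPax7, 0.37 to 0.68 in both and −0.35 to −0.05 between the lines. Median scaling also moved the median of all genes, from −0.19 to −0.59 in iPax3, −0.15 to −0.38 in iPax7, −0.16 to −0.47 in both and 0.07 to 0.24 between the lines.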
